A study of Mus musculus with 15 samples.

Results

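The interferon-stimulated and MHC class I genes described here are 36 named mouse genes that act in the response of cells to interferon or in the display of peptides on MHC class I. Their probes were found through the accession each probe carries, but the genes were chosen with earlier results of these data known. A probe was matched for 35 of the 36, out of 22872 genes tested, and no probe was matched to the class I heavy chain gene H2-D1. The probe used for each of these 35 was well above background on all 15 arrays, so all 35 passed the filter on dim probes. RNA came from the whole hippocampus, both hemispheres together, of male C57BL/6 mice about 2.5 months old, and was labelled with Cy3 for single-colour Agilent arrays. There were 4 arrays of dflox control mice, which carry floxed alleles of the glucocorticoid receptor (GR, gene Nr3c1) and the mineralocorticoid receptor (MR, gene Nr3c2) without Cre. The knockouts had 4 arrays of GREmx1-cre mice (floxed GR with Emx1-Cre), 4 of MREmx1-cre mice (floxed MR with Emx1-Cre) and 3 of GRMREmx1-cre mice (both floxed genes with Emx1-Cre). Emx1-Cre acts in excitatory neurons and astrocytes of the dorsal forebrain and not in microglia, so the receptors remain in microglia, vessels and blood-derived cells. As the design is read here, GREmx1-cre mice carry no floxed Nr3c2 and MREmx1-cre mice no floxed Nr3c1, unlike dflox.

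When a cell senses viral nucleic acid it secretes type I interferon, whose receptor signals through STAT2 and IRF9 to the interferon-stimulated response element (ISRE) in the promoters of its target genes. Type II interferon acts through the gamma-activated sequence (GAS) and raises the immunoproteasome, the TAP peptide transporter and MHC class I. In brain, microglia are a main source of such transcripts, and glucocorticoids acting through GR are known to restrain interferon and inflammatory signalling in immune cells.

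The promoters of the members that the results below turn on are shown for the motifs they hold. The sequences are those of RefSeq, build GRCm38.p6, read 5′ to 3′ on the gene's strand, and all lie before the annotated start. Capitals mark the ISRE core, searched as GAAANNGAAA on both strands.
Ifit1, chr19:34640765-34640833, plus strand: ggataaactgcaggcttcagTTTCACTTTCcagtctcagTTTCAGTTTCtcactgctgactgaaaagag
Ifit3, chr19:34583353-34583436, plus strand: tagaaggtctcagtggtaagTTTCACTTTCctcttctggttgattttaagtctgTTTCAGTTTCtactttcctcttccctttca
Ifit3b, chr19:34607749-34607832, plus strand: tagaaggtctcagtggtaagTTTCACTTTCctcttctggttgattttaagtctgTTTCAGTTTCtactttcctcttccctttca
Gbp3, chr3:142559979-142560034, plus strand: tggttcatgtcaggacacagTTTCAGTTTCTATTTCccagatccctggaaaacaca
Irgm1, chr11:48871421-48871470, minus strand: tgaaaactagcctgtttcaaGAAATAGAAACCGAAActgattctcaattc
B2m, chr2:122147528-122147577, plus strand: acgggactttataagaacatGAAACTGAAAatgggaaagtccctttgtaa
Isg15, chr4:156200855-156200916, minus strand: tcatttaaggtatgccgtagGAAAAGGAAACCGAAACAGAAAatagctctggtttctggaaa
In Gbp3, Irgm1 and Isg15 the matches overlap each other. The windows of Ifit3 and its neighbour Ifit3b were identical at 84 of 84 bases. Irf8 and Ifit2 held no ISRE core in their window and are shown with the GAS motif in capitals, searched as TTCNNNGAA, which reads the same on both strands.
Irf8, chr8:120736167-120736233, plus strand: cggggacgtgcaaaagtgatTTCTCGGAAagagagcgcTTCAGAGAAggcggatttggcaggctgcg
Ifit2, chr19:34550444-34550481, plus strand: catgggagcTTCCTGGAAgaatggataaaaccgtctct

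Of the 36 members, 31 had a promoter entry, which covers 250 bases before to 50 after the start. The ISRE core was found in 15 of these 31 (48.4%), and in 1079 of all 27025 genes with an entry (3.99%). The holders were the sensors Ifih1 and Ddx58, Stat2, Ifit1, Ifit3, Oas1a, Isg15, Bst2, Ifitm3, Rsad2, the GTPase genes Gbp2, Gbp3, Igtp and Irgm1, and B2m. The GAS motif was in 9 of 31 (29.0%), against 9.55% of all genes: Irf1, Irf8, Ifit2, Oas1a, Bst2, Ifitm3, Ifi35, Igtp and Psmb8. The glucocorticoid response element, searched as GNACANNNTGTNC, was in 0 of 31 members and in 0.537% of all genes. These are matches of letters in a window of 300 bases, which say nothing of binding.

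The arrays were similar in brightness and in the number of detected probes. Arrays had a 75th percentile of intensity of 821 to 1027, and from 28092 to 30215 probes per array were well above background. Outlier spots were less even: 188 were flagged in GREmx1-cre replicate 1, while no further array exceeded 103. Levels below are log2 signals minus the array's 75th percentile, differences are log2 fold changes ± standard error (SE), and a gene is said to rise or fall where limma's adjusted p over all tested genes was below 0.05. Nr3c1 fell in GREmx1-cre (-2.24 ± 0.0776) and GRMREmx1-cre (-1.64 ± 0.0838). Nr3c1 rose in MREmx1-cre (0.54 ± 0.0776). Nr3c2 stood at -0.11 in MREmx1-cre (adjusted p = 0.48), fell in GRMREmx1-cre (-0.31 ± 0.0928) and rose in GREmx1-cre (0.42 ± 0.0859). Whether its probe lies in the deleted part is not given, so it does not check MR loss. Every genotype had 1 of 4 slides to itself, so an effect of slide cannot be told apart from that of genotype. In whole tissue, more cells of a type and more RNA per cell cannot be told apart. The labels do not say whether each array is a separate mouse; if not, the p-values measure only the spread between these samples.

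Few members changed with either receptor. In GREmx1-cre against dflox 1 of 35 rose and 0 fell, a share of 2.86% where 3.15% of all tested genes were called (2.26% higher). In MREmx1-cre 2 rose and 0 fell, 5.71% of the members against 6.8% of all genes called (4.21% higher). In GRMREmx1-cre 4 rose and 0 fell, 11.4% of the members against 16.3% of all genes called (11.4% higher). The member counts were thus near or below those of the whole array. The median member difference was 0.07 in GREmx1-cre, 0.10 in MREmx1-cre and 0.06 in GRMREmx1-cre, where the median of all genes was 0.02, 0.04 and 0.03. Another scaling of the arrays changed the balance of all calls: with median scaling 247 of 440, 524 of 1029 and 1542 of 3254 called genes were higher, against 518 of 721, 962 of 1556 and 2613 of 3719 on the main scale. With quantile normalization 245 of 425 were higher in GREmx1-cre. The 3 comparisons share the 4 dflox arrays and are therefore not independent of each other. For some genes below, all arrays of a genotype lay above or below all those of another. The share of all genes that do so is not given, so this cannot be read as particular to these genes. The risers were the transcription factor gene Irf8, the antiviral genes Ifit2 and Ifit3 and the GTPase genes Gbp3 and Irgm1.

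**Figure D1:**
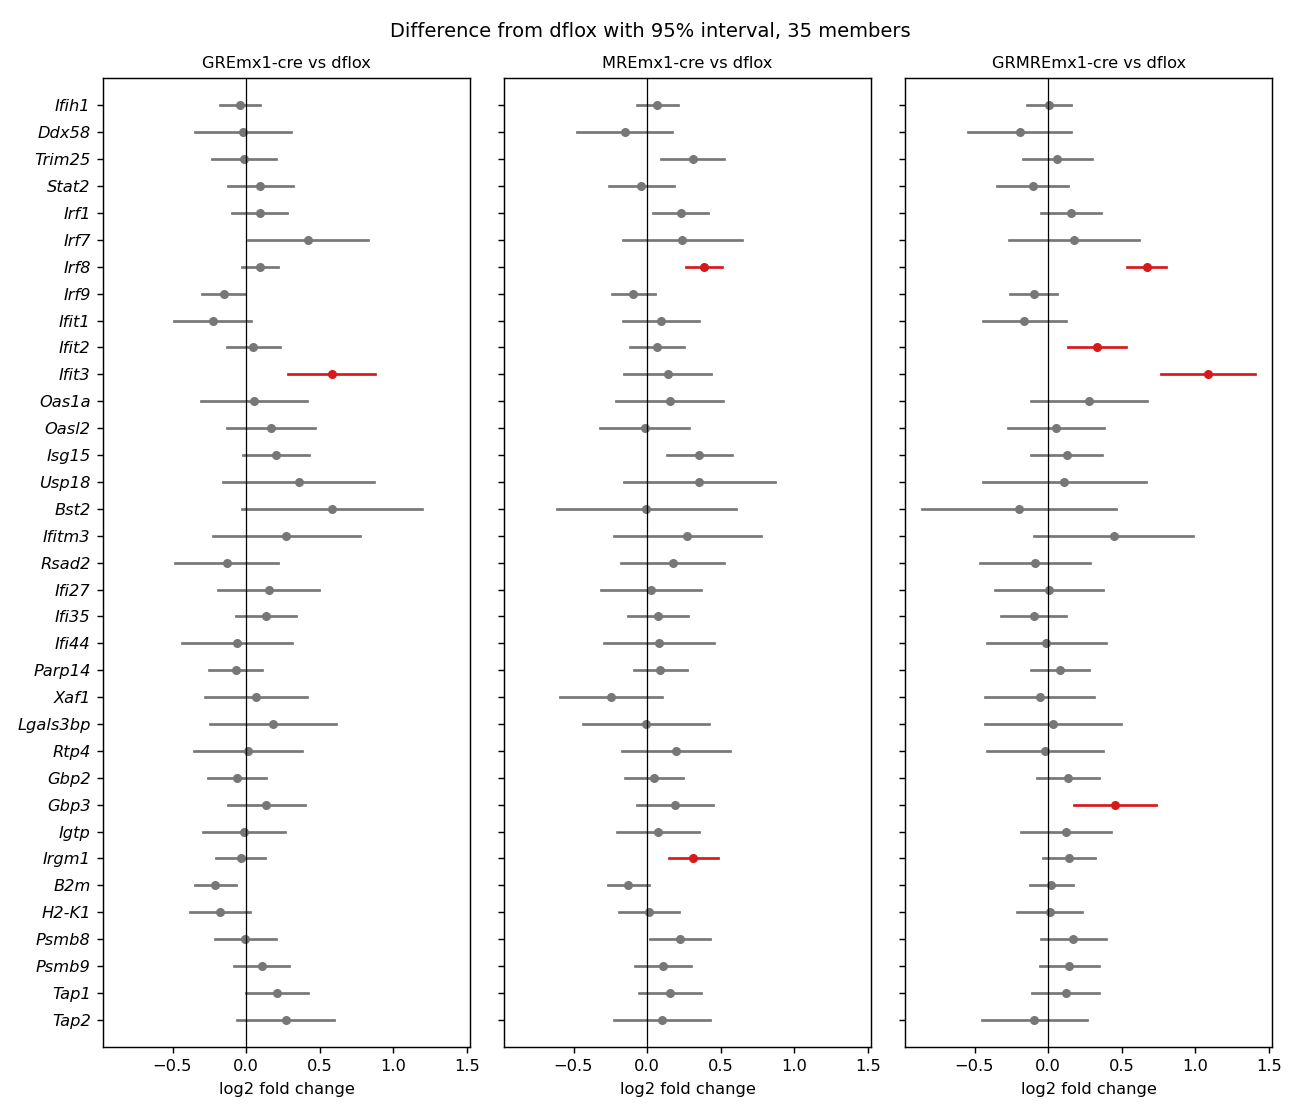
Log2 fold change from dflox (x axis) of the 35 measured members (y axis, ordered by role) in GREmx1-cre, MREmx1-cre and GRMREmx1-cre, with bars for the 95% interval of limma's fit and red for an adjusted p below 0.05. Red points number 1, 2 and 4 from left to right, all to the right of 0, and Ifit3 in GRMREmx1-cre lies farthest at 1.09.

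Among the transcription factors, Irf8 gave the clearest differences. It encodes a factor that myeloid cells and microglia need for their development. Its level was -0.87, -0.95, -0.98 and -0.87 on the 4 dflox arrays and -0.80, -0.84, -0.77 and -0.88 on the 4 GREmx1-cre arrays. It was -0.51, -0.49, -0.56 and -0.57 in MREmx1-cre, and -0.37, -0.10 and -0.28 in GRMREmx1-cre. Every MREmx1-cre array lay above every dflox and GREmx1-cre array, and every GRMREmx1-cre array lay above all others, while dflox and GREmx1-cre overlapped. Irf8 rose 1.31-fold in MREmx1-cre (0.39 ± 0.0567, adjusted p = 0.00175) and 1.59-fold in GRMREmx1-cre (0.67 ± 0.0612, adjusted p = 5.52e-05). In GREmx1-cre the difference was 0.10 with a 95% interval of -0.03 to 0.22. Its second probe gave 0.12, 0.37 and 0.57 in GREmx1-cre, MREmx1-cre and GRMREmx1-cre. With each array left out in turn, the MREmx1-cre value stayed between 0.37 and 0.40 and the GRMREmx1-cre value between 0.60 and 0.73, all called. Normexp background correction ended the MREmx1-cre call (0.33, adjusted p = 0.0938).

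Microglia markers moved beside Irf8. Over all tested genes 3.15%, 6.8% and 16.3% were called in GREmx1-cre, MREmx1-cre and GRMREmx1-cre. Of 18 microglia markers, all above background on every array, 7 rose in MREmx1-cre and 14 in GRMREmx1-cre, while 1 rose and 1 fell in GREmx1-cre. Their median difference was 0.13 in GREmx1-cre, 0.24 in MREmx1-cre and 0.41 in GRMREmx1-cre, against 0.10, 0.39 and 0.67 for Irf8. Relative to the mean of all arrays, the mean of the 18 lay between -0.22 and -0.10 in dflox, -0.16 and -0.05 in GREmx1-cre, 0.065 and 0.14 in MREmx1-cre, and 0.16 and 0.34 in GRMREmx1-cre. The GRMREmx1-cre array with the highest Irf8 level, replicate 2, also had the highest microglia mean. The part of microglia in the rise of Irf8 was not tested. Markers of perivascular macrophages (7 tested) and of neutrophils and monocytes (5 tested) had 0 calls in these 3 comparisons. Of 10 markers of hippocampal neurons, 1 rose and 2 fell in MREmx1-cre and 1 rose and 5 fell in GRMREmx1-cre, with 0 calls in GREmx1-cre. Their mean lay between -0.09 and 0.22 in dflox, -0.17 and -0.03 in MREmx1-cre, and -0.23 and -0.16 in GRMREmx1-cre. Of 10 astrocyte markers 4 rose and 2 fell in GRMREmx1-cre, and of 3 tested B cell markers 1 rose in each knockout. The part of these cells in the results was not tested. Of 6 tested markers of T and NK cells, 2 rose in each single knockout and 3 in GRMREmx1-cre, among them Cd3e (1.43 ± 0.221) and Cd4 (0.73 ± 0.0882) in GRMREmx1-cre. Cd3g, a chain of the T cell receptor complex, was not well above background on any array, and Cd8a on 2.

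**Figure D2:**
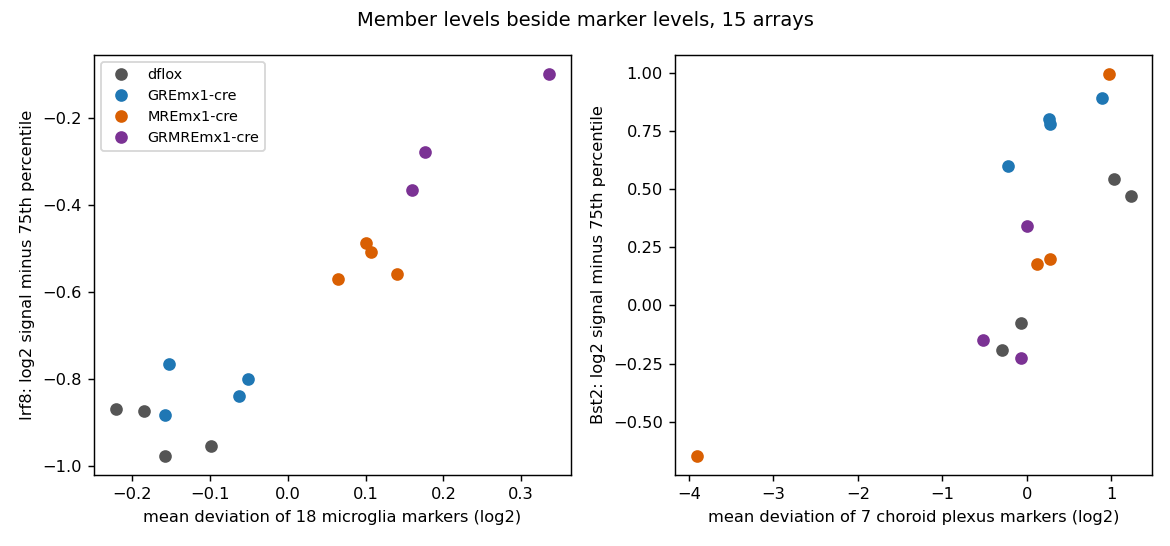
Left, level of Irf8 against the mean deviation of 18 microglia markers from their mean over 15 arrays; right, level of Bst2 against that of 7 choroid plexus markers. Each point is an array, coloured by genotype. Irf8 and the microglia mean are both lowest in dflox and GREmx1-cre and highest in GRMREmx1-cre, and on the right 1 MREmx1-cre array, replicate 2, stands far to the left with the lowest Bst2 level.

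Between the knockouts, Irf8 was higher in MREmx1-cre than in GREmx1-cre (0.29 ± 0.0567, adjusted p = 0.00698) and higher in GRMREmx1-cre than in GREmx1-cre (0.57 ± 0.0612, adjusted p = 0.000136). Both calls held with each array left out, but the first ended with normexp correction (0.23). GRMREmx1-cre exceeded MREmx1-cre by 0.28 ± 0.0612 (adjusted p = 0.0278). Leaving out MREmx1-cre replicate 3 or 4 or GRMREmx1-cre replicate 2 or 3 ended that call, and over all arrays left out the difference lay between 0.21 and 0.34. Plain background subtraction, median scaling, averaging the probes and fitting only these groups ended it too (0.22 to 0.28), as did a fit with the replicate number as a block. The interaction, the amount by which the joint loss exceeds the sum of the single losses, was 0.19 for Irf8 (95% interval 0.01 to 0.37, adjusted p = 0.279).

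The other 4 factors of the list were not called in any of these comparisons. Irf7, the factor that amplifies type I interferon production, stood at 0.42 in GREmx1-cre, 0.24 in MREmx1-cre and 0.18 in GRMREmx1-cre (adjusted p = 0.245, 0.502 and 0.62). Irf1, a factor of the type II interferon response, stood at 0.09, 0.23 and 0.15, and its second probe at 0.34, -0.01 and -0.04, so the probes did not give the same values. Stat2 and Irf9, which act at the ISRE, lay between -0.11 and 0.10 and between -0.15 and -0.09 in the 3 comparisons with dflox. All GREmx1-cre arrays were above those of dflox for Irf7 and below them for the Irf9 probe used (adjusted p = 0.245 and 0.237). The second Irf9 probe, above background on 14 arrays, stood at 0.19, -0.04 and 0.31 in the 3 comparisons with dflox. In GREmx1-cre and GRMREmx1-cre the direction of Irf9 thus depends on the probe.

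The IFIT genes encode cytoplasmic proteins that bind viral RNA and block its translation, and the 3 members differed. Ifit3 was at -0.43, -0.57, -0.53 and -0.24 in dflox, and at 0.35, 0.16, 0.01 and 0.05 in GREmx1-cre. It was at -0.19, -0.69, -0.27 and -0.06 in MREmx1-cre and at 0.40, 0.81 and 0.73 in GRMREmx1-cre. The arrays of both genotypes that lack GR were thus all above those of dflox and MREmx1-cre, which overlapped, and GRMREmx1-cre was above GREmx1-cre. Ifit3 rose 1.5-fold in GREmx1-cre (0.58 ± 0.137, adjusted p = 0.0378) and 2.13-fold in GRMREmx1-cre (1.09 ± 0.148, adjusted p = 0.000452). In MREmx1-cre it stood at 0.14 with a 95% interval of -0.16 to 0.44. The rise in GRMREmx1-cre held with each array left out (1.01 to 1.21). The rise in GREmx1-cre did not pass once any 1 of the 4 GREmx1-cre arrays, MREmx1-cre replicate 3, or 1 of dflox replicates 1, 2 and 3 was left out (0.52 to 0.63, adjusted p up to 0.11). Normexp, median scaling and the lack of a filter on dim probes ended it as well (0.51 to 0.58), as did a fit with the replicate number as a block.

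Ifit3b, a near-identical copy beside Ifit3 that shares the promoter window shown above, has a probe of its own. It stood at 0.56 in GREmx1-cre, -0.10 in MREmx1-cre and 1.09 ± 0.155 in GRMREmx1-cre (adjusted p = 0.000631 in the last). Which copy gave the signal of either probe is uncertain, since probe sequences were not used here. Ifit3 was 0.95 ± 0.148 higher in GRMREmx1-cre than in MREmx1-cre (adjusted p = 0.00466), with each array left out as well (0.82 to 1.07), but not in a fit of only these groups (adjusted p = 0.0509). It was also higher in GRMREmx1-cre than in GREmx1-cre (adjusted p = 0.0353), a call lost without GREmx1-cre replicate 2, 3 or 4 or GRMREmx1-cre replicate 2 or 3 (0.42 to 0.51), with normexp (0.35) or without the filter on dim probes. Between MREmx1-cre and GREmx1-cre it stood at -0.44 (adjusted p = 0.0617), and its interaction at 0.36 (95% interval -0.07 to 0.80).

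Ifit2 was at -3.28, -3.42, -3.37 and -3.60 in dflox, between -3.52 and -3.26 in GREmx1-cre and between -3.47 and -3.15 in MREmx1-cre. In GRMREmx1-cre it was at -3.09, -3.10 and -3.06, above all other arrays. It rose 1.26-fold there (0.34 ± 0.0909, adjusted p = 0.0248) and exceeded GREmx1-cre by 0.29 ± 0.0909 (adjusted p = 0.0495). The first call ended on leaving out dflox replicate 2 or 4 or any GRMREmx1-cre array (0.27 to 0.34). The second ended on leaving out dflox replicate 2 or 3, MREmx1-cre replicate 2 or 4, or any GREmx1-cre or GRMREmx1-cre array (0.24 to 0.32). Quantile normalization, median scaling and averaging the probes each ended both calls (0.25, 0.25 and 0.28 for the first). A fit with the replicate number as a block also ended both. The other Ifit2 probe stood at 0.23 ± 0.196 in GRMREmx1-cre. Ifit1, with 2 ISRE cores before its start, was not called: it stood at -0.23 in GREmx1-cre, 0.10 in MREmx1-cre and -0.16 in GRMREmx1-cre.

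**Figure D3:**
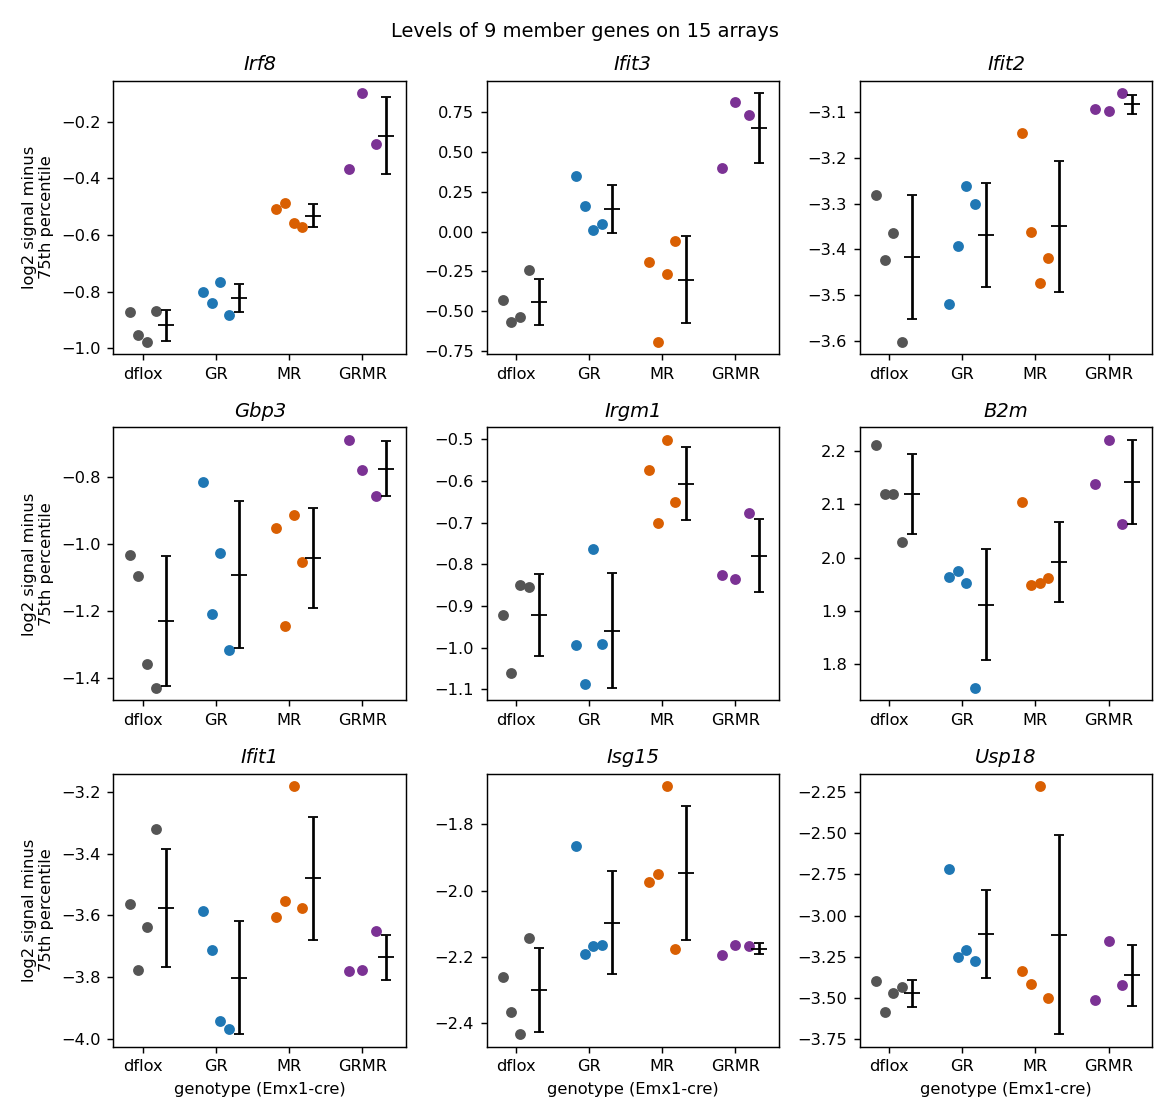
Level of 9 members (log2 signal minus the array's 75th percentile, y axis, a scale per panel) by genotype (x axis). Points are arrays (n = 4, 4, 4 and 3), and the black dash and bar are the group mean ± SD. GRMREmx1-cre points of Irf8 and Ifit2 lie above all others, and 1 MREmx1-cre array is the highest of all in Ifit1, Isg15 and Usp18.

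The interferon-inducible GTPases attack the membranes around intracellular pathogens. Gbp3, a guanylate-binding protein, was at -1.03, -1.10, -1.36 and -1.43 in dflox and at -0.69, -0.78 and -0.85 in GRMREmx1-cre, with no overlap. It rose 1.37-fold (0.46 ± 0.129, adjusted p = 0.0301). Leaving out dflox replicate 3, dflox replicate 4 or any GRMREmx1-cre array ended this call (0.39 to 0.50, adjusted p up to 0.1). Gbp3 ran from -1.32 to -0.81 in GREmx1-cre and spanned -1.25 to -0.91 in MREmx1-cre, overlapping dflox.

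Irgm1, an immunity-related GTPase, was at -0.92, -1.06, -0.85 and -0.85 in dflox and at -0.57, -0.70, -0.50 and -0.65 in MREmx1-cre, again with no overlap. It rose 1.24-fold in MREmx1-cre against dflox (0.31 ± 0.0761, adjusted p = 0.0279) and its second probe gave 0.32. The call ended on leaving out MREmx1-cre replicate 1, 3 or 4, or dflox replicate 1 or 2 (0.27 to 0.33, adjusted p up to 0.0783), with normexp (0.27), with median scaling (0.29) and in a fit of only these groups. Against GREmx1-cre, at -0.99, -1.09, -0.76 and -0.99, Irgm1 was higher in MREmx1-cre by 0.35 ± 0.0761 (adjusted p = 0.0125), with each array left out as well, but not with normexp (0.34, adjusted p = 0.19) or in a fit of only these groups. In GRMREmx1-cre it stood at 0.14 (95% interval -0.04 to 0.32) and was not called, and its second probe gave 0.23. The GRMREmx1-cre arrays, from -0.835 to -0.678, were also all above those of dflox. Gbp2 and Igtp lay between -0.06 and 0.13 in the 3 comparisons with dflox and were not called.

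In MHC class I presentation, B2m encodes the light chain shared by all class I molecules. Its level was 2.21, 2.12, 2.12 and 2.03 in dflox and 1.96, 1.98, 1.95 and 1.76 in GREmx1-cre, so that all GREmx1-cre arrays were lower. The difference of -0.21 ± 0.0633 missed the threshold (adjusted p = 0.0992), and the second B2m probe gave -0.16. In MREmx1-cre the levels were 2.10, 1.95, 1.95 and 1.96 and in GRMREmx1-cre 2.14, 2.22 and 2.06. B2m was higher in GRMREmx1-cre than in GREmx1-cre (0.23 ± 0.0683, adjusted p = 0.0383), a call lost without GREmx1-cre replicate 3 or 4 or GRMREmx1-cre replicate 1 or 2 (0.18 to 0.24, adjusted p up to 0.155). Plain background subtraction, median scaling, no filter on dim probes and a fit of only these groups also ended it (0.18 to 0.23), and normexp turned its sign (-0.069). Against dflox it stood at 0.02 (95% interval -0.13 to 0.17). B2m had the smallest adjusted p of the members for the interaction (0.36 ± 0.0931, adjusted p = 0.0812). No member was called there (0 of 35, 4 at an unadjusted p below 0.05), where 1.29% of all genes were.

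The heavy chain gene H2-K1 stood at -0.18 in GREmx1-cre, 0.01 in MREmx1-cre and 0.01 in GRMREmx1-cre, with a last interval of -0.21 to 0.23. Psmb8 and Psmb9, catalytic subunits of the immunoproteasome, and Tap1 and Tap2, which pump peptides into the endoplasmic reticulum, were not called. The 4 differences lay between -0.01 and 0.27 in GREmx1-cre, between 0.10 and 0.22 in MREmx1-cre, and between -0.09 and 0.17 in GRMREmx1-cre. The highest MREmx1-cre value was that of Psmb8 (0.22, 95% interval 0.02 to 0.43, adjusted p = 0.19).

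The sensors and their signalling gave 0 calls of 3 in each comparison with dflox. Ifih1, the sensor MDA5 for long double-stranded RNA, lay within -0.04 and 0.07. Trim25, a ligase that activates the sensor RIG-I, stood at 0.31 ± 0.0998 in MREmx1-cre (adjusted p = 0.0853), and was called there without MREmx1-cre replicate 4 (0.39, adjusted p = 0.033). For Ddx58, which encodes RIG-I, the probe used stood at -0.15 and another, as often above background, at 0.43 in MREmx1-cre, so its direction there depends on the probe.

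Isg15, a ubiquitin-like protein attached to other proteins during the response, had its highest differences in the single knockouts. It was at -2.26, -2.37, -2.43 and -2.14 in dflox and at -1.97, -1.95, -1.69 and -2.18 in MREmx1-cre. The difference of 0.35 ± 0.103 missed the threshold (adjusted p = 0.0584, 95% interval 0.13 to 0.58). In GREmx1-cre it was 0.20 and in GRMREmx1-cre 0.13. Usp18, the protease that removes ISG15 and dampens receptor signalling, was at -3.33, -3.41, -2.21 and -3.50 in MREmx1-cre, against -3.59 to -3.40 in dflox. In MREmx1-cre, replicate 3 alone stood clear of the rest, and the difference of 0.36 had a 95% interval of -0.16 to 0.87. In GREmx1-cre Usp18 was at -2.72, -3.25, -3.21 and -3.27, with all arrays above those of dflox. That difference was also 0.36 and was not called (adjusted p = 0.447, 95% interval -0.15 to 0.87).

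The remaining effectors, among them Oas1a and Oasl2, which make the second messenger that activates RNase L, and Rsad2, which encodes viperin, were not called in any comparison on the main settings. Bst2, which tethers budding virus to the cell, was at 0.60, 0.78, 0.80 and 0.89 in GREmx1-cre, above the dflox range of -0.19 to 0.54. Its difference of 0.58 ± 0.282 was not called (adjusted p = 0.287, 95% interval -0.03 to 1.19). Bst2 lies near Nr3c2, with 39 tested genes between them, and 48 of the 200 tested genes nearest to Nr3c2 were called in GREmx1-cre (24.0%). Loss of GR and the difference in the Nr3c2 allele cannot be told apart for such a gene. Irf8 is on the same chromosome with 347 tested genes between.

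Many members were high on 1 array. MREmx1-cre replicate 3 was the highest of the 15 arrays for 20 of 35 members (57.1%), while it was the highest for 8.22% of all tested genes. Any other array was highest for 3 members at most. The median member lay 0.33 above its mean over all arrays on that array, and between -0.17 and 0.13 on the other 14. Rtp4, a chaperone of receptor trafficking, was at 0.56 there, with the rest of its group from -0.30 to -0.23. Igtp was at 0.47 there, with the rest of the group from -0.19 to -0.10, and Irf7 at -3.27 against -4.26 to -3.99. Irgm1, which rose in MREmx1-cre, was at its highest there too (-0.50), whereas Irf8 on replicate 3 was at -0.56, within the range of its group. Ifit2 was at the lowest of its group there (-3.47). Without replicate 3 the median member difference of MREmx1-cre from dflox went from 0.10 to 0.02, and 1 member remained called, Irf8. The microglia mean of MREmx1-cre replicate 3 (0.14) was the highest of its group. Its T and NK cell mean (0.04) lay inside the range of its group (-0.25 to 0.16). Its choroid plexus mean (0.98) was the highest of the group too, as were those of oligodendrocytes (0.195), endothelium (0.095) and hippocampal neurons (-0.031). On dflox replicates 1 and 3 the choroid plexus mean was higher still (1.035 and 1.233). The part of tissue content in these levels was not tested.

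**Figure D4:**
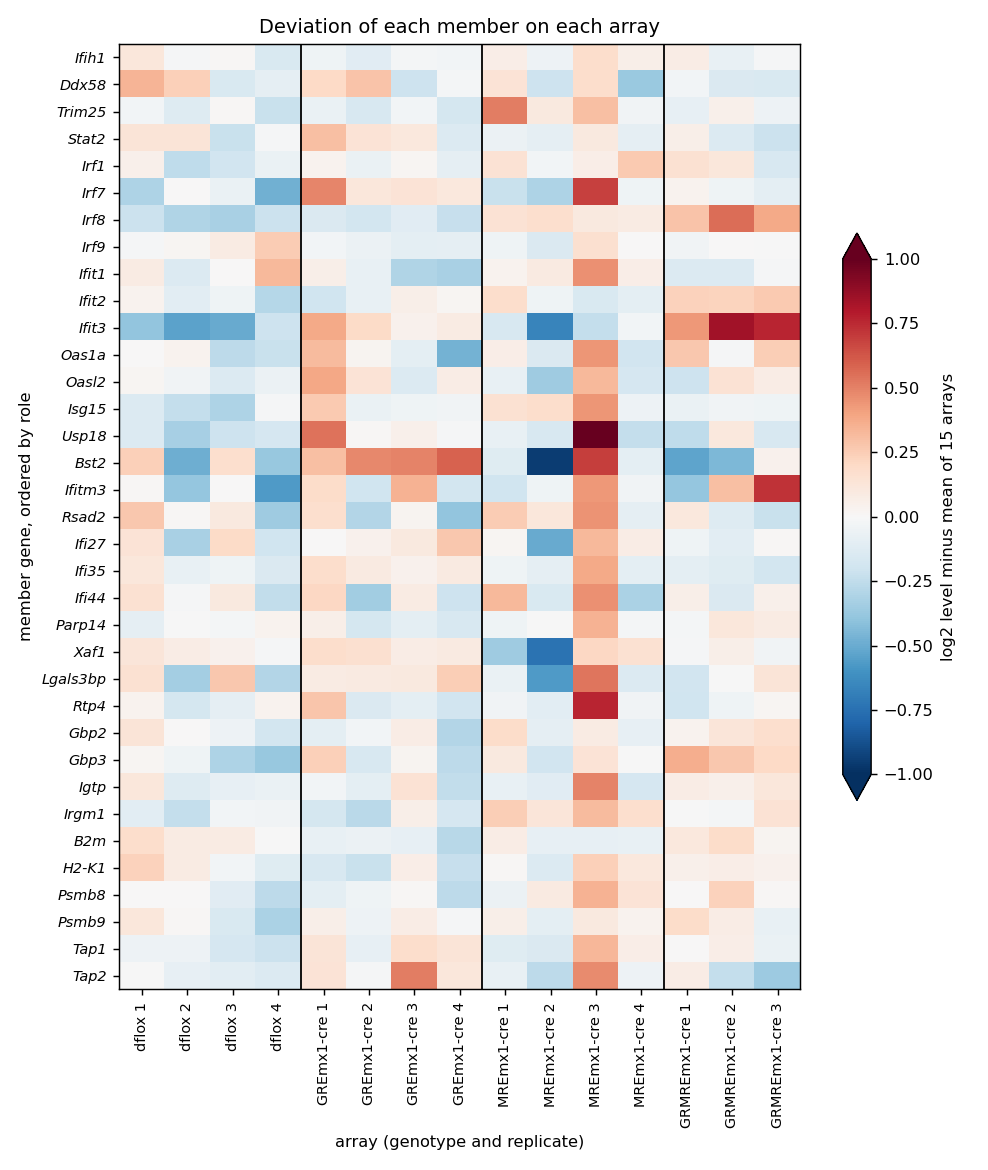
Log2 level minus the gene's mean over 15 arrays (colour, from blue for lower to red for higher, cut at -1 and 1) for 35 members (rows, by role) on each array (columns; black lines part the genotypes). The column of MREmx1-cre replicate 3 is red in most rows, with 20 of 35 members at their highest.

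MREmx1-cre replicate 2 stood apart in a different way. Its 7 choroid plexus markers averaged -3.91 relative to all arrays, against -0.52 to 1.23 on the other 14, and Ttr, which encodes transthyretin, was at -2.58 where each of the other 14 arrays was at 3.38 or more. On this array Bst2 (-0.65), Ifi27 (3.56) and the secreted glycoprotein gene Lgals3bp (1.02) were each at their lowest of the 15 arrays. Xaf1, a proapoptotic interferon-stimulated gene, was at its lowest there too (-2.97). Its next lowest level (-2.59) was on MREmx1-cre replicate 1, where the choroid plexus mean was 0.117. MREmx1-cre replicate 2 was the lowest array for 7 of 35 members in all, where GREmx1-cre replicate 4 was for 7 and dflox replicate 4 for 9. The part of choroid plexus content in these levels was not tested. Without MREmx1-cre replicate 2 the median member difference of MREmx1-cre from dflox was 0.19, and Irf8 and Irgm1 remained called.

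In the comparisons between knockouts, 2 of 35 members were higher in MREmx1-cre than in GREmx1-cre (Irf8 and Irgm1), where 9.33% of all genes were called and 4.91% higher. In GRMREmx1-cre against GREmx1-cre 4 were higher (Irf8, Ifit2, Ifit3 and B2m), where 16.1% of all genes were called and 9.23% higher. In GRMREmx1-cre against MREmx1-cre 2 were higher (Irf8 and Ifit3), where 2.98% of all genes were called and 2.35% higher. In these 3 comparisons 0 members were lower. Bst2 stood at -0.78 ± 0.305 in GRMREmx1-cre against GREmx1-cre (adjusted p = 0.103). It was called lower in a fit of only these groups, with normexp correction (-0.76) and without MREmx1-cre replicate 2 or 3. As the design is read here, the Nr3c2 allele differs between these groups as well. For Bst2, which lies near Nr3c2, that difference and loss of MR cannot be told apart. Ifi35 (-0.23, adjusted p = 0.15) was called lower in a fit of only these groups and without MREmx1-cre replicate 3. With median scaling 1079 of 1700 calls in MREmx1-cre against GREmx1-cre were higher, against 1124 of 2134 on the main scale, and 285 of 454 in GRMREmx1-cre against MREmx1-cre, against 538 of 681.

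A missed threshold does not show that a member was unchanged, so the intervals set the limit. The 95% interval lay wholly within 0.5 of zero on the log2 scale, a 1.41-fold change, for 28 of 35 members in GREmx1-cre, 24 in MREmx1-cre and 25 in GRMREmx1-cre. The noisiest members, with the largest spread within groups, were Bst2 (pooled SD 0.43), Usp18 (0.36) and Ifitm3 (0.35). Ifitm3, which blocks fusion of viruses in endosomes, stood at 0.27, 0.27 and 0.44 in the 3 knockouts, with a last interval of -0.09 to 0.98.

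The rest of the interferon pathway was read from 85 further genes in 6 lists, of which 72 were tested. In GREmx1-cre 1 rose and 1 fell, in MREmx1-cre 1 rose, and in GRMREmx1-cre 8 rose and 0 fell. These are 2.78%, 1.39% and 11.1% of the 72, each below the 3.15%, 6.8% and 16.3% of all genes called. The median difference was -0.01, 0.03 and 0.05. Of 8 tested receptor, kinase and ligand genes, the receptor subunit Ifnar1 fell in GREmx1-cre (-0.37 ± 0.0581, adjusted p = 0.00614). Its level was between 0.22 and 0.36 there, between 0.58 and 0.79 in dflox and between 0.59 and 0.88 in the other knockouts. The kinase Tyk2, which pairs with that subunit, rose in GREmx1-cre (0.34 ± 0.081, adjusted p = 0.0427). The interferon gene Ifnb1 was not well above background on any array, and Ifng on 3 of 15.

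Against dflox, 16.3% of all genes were called in GRMREmx1-cre, 3.15% in GREmx1-cre and 6.8% in MREmx1-cre. Of 7 further STAT, IRF and SOCS genes, 3 rose in GRMREmx1-cre and 0 in the single knockouts. These were the feedback inhibitors Socs1 (0.50 ± 0.113) and Socs3 (0.62 ± 0.132) and the factor Irf5 (0.23 ± 0.0699). All 3 GRMREmx1-cre arrays were above all dflox arrays for each of them. Of 10 nucleic acid sensing genes, Sting1, the adaptor of the cytosolic DNA sensor, rose in MREmx1-cre (0.42 ± 0.0699, adjusted p = 0.00373) and GRMREmx1-cre (0.43 ± 0.0755, adjusted p = 0.00231). Whether Sting1 lies near Nr3c1, whose allele also differs between MREmx1-cre and dflox, was not examined. For Sting1, loss of MR and the difference in the Nr3c1 allele can therefore not be told apart in that comparison. Of 30 tested further interferon-stimulated genes, Ifit3b, Nmi (0.32 ± 0.0631) and the ISG15-activating enzyme Uba7 (0.31 ± 0.0727) rose in GRMREmx1-cre.

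Of 13 further antigen presentation genes, 1 rose in GRMREmx1-cre: Nlrc5, the transactivator of MHC class I genes (0.91 ± 0.207, adjusted p = 0.00975), whose probe was above background on 10 of 15 arrays. The 4 tested MHC class II genes gave 0 calls in all 7 comparisons. Against GREmx1-cre, 11 pathway genes were higher in GRMREmx1-cre and 0 lower (15.3%, where 16.1% of all genes were called), among them Ifnar1 (0.36 ± 0.0627), the RNA sensor Tlr7 (0.59 ± 0.109) and Herc6 (0.50 ± 0.107). In MREmx1-cre against GREmx1-cre 6 were higher, Ifnar1 (0.51 ± 0.0581) among them, and 2 lower, Tyk2 and Ifit3b (11.1%, where 9.33% of all genes were called). In GRMREmx1-cre against MREmx1-cre 1 was higher, Ifit3b (1.19 ± 0.155), a share of 1.39% where 2.98% of all genes were called.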

How the data were processed

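The submitters' processing notes name Agilent Feature Extraction 12.0. The deposited processed signal is, per the file headers, a background-corrected intensity, and other columns hold 0 or 1 flags (well above background, saturated, outlier). The value table the authors deposited held the same intensity at 45018 of 45018 spots. From it, log2 intensity minus the array's 75th percentile was computed, without controls (43379 spots kept) and outlier spots (1281 over all arrays). Probes were named by accession through a RefSeq table (GRCm38.p6; 28223 of 41174 matched). Genes needed a probe above background on 3 arrays, and the brightest probe was used. A limma 3.58.1 model (R 4.3.3) with a mean per genotype was fitted to all 15 arrays, with Benjamini-Hochberg adjustment at 0.05 over 22872 genes, tested on simulated data. Arrays limit the precision by their number.

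The members and lists were chosen with earlier results of these data known. All members may be named; of each pathway list, up to 4 called genes per comparison by adjusted p. Normexp correction used the median spot signal in place of the planned mean signal. Plain background subtraction was added after seeing the data. Figures used matplotlib 3.10.9.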

Additional observations from a re-analysis of the deposited data

Results flagged for a closer look

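In 12 of 105 groups of 4 arrays (11.4%), 1 array lay so far from the other 3 that the gap exceeded Dixon's 95% critical value of 0.829. For normally distributed values about 1 in 20 would exceed it. The share of all genes flagged by this rule is not given, so 11.4% cannot be read as particular to the members. GRMREmx1-cre, with 3 arrays, was not tested. On MREmx1-cre replicate 3 these were Usp18 (level -2.21), Rtp4 (0.56), Igtp (0.47), Parp14 (-1.12), Ifi35 (-1.49) and Ifit1 (-3.18), each the highest of its group. On GREmx1-cre replicate 1 Irf7 (-3.47), Isg15 (-1.86) and Usp18 (-2.72) were the highest. On GREmx1-cre replicate 4 Lgals3bp (1.83) was the highest and B2m (1.76) the lowest, and on MREmx1-cre replicate 1 B2m (2.10) was the highest. The groups share arrays, so these values are not independent of each other.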

How the results depend on the processing

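Of 375 alternative values of the 15 calls, without the deposited value table, which holds the same intensities, 293 stayed called in the same direction, 81 kept their direction only, and 1 reversed: B2m in GRMREmx1-cre against GREmx1-cre, at -0.069 with normexp correction. Over the fits with an array left out, member calls ran from 0 to 1 in GREmx1-cre, 1 to 3 in MREmx1-cre and 2 to 4 in GRMREmx1-cre against dflox. They ran from 2 to 4 in MREmx1-cre against GREmx1-cre, 1 to 6 in GRMREmx1-cre against GREmx1-cre and 1 to 2 in GRMREmx1-cre against MREmx1-cre, and were 0 for the interaction. Of the 15 calls, 7 held in all these fits.

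Normexp gave 0 calls in GREmx1-cre, 0 in MREmx1-cre and 18 in GRMREmx1-cre against dflox, 0 in MREmx1-cre against GREmx1-cre, 17 in GRMREmx1-cre against GREmx1-cre and 14 in GRMREmx1-cre against MREmx1-cre. In the same order it called 0.0568%, 0.459%, 61.8%, 0.756%, 61.6% and 59.8% of all genes, so these counts are not particular to the members. Its fitted background means were -30.6, -804 and -107 on the GRMREmx1-cre arrays and -0.33 to 2.42 on the others, and it moved the median of all genes in GRMREmx1-cre to 0.42. Plain background subtraction gave 2 calls in GRMREmx1-cre against GREmx1-cre and 1 against MREmx1-cre. Median scaling gave 1 call in MREmx1-cre, 2 in GRMREmx1-cre against GREmx1-cre and 1 against MREmx1-cre, and its 1 call in GREmx1-cre was B2m, lower (-0.26), in place of Ifit3. Without the filter on dim probes there were 0 calls in GREmx1-cre and 1 in GRMREmx1-cre against GREmx1-cre. Averaging probes gave 1 call in GRMREmx1-cre against MREmx1-cre. Fitting only the groups compared gave 1 call in MREmx1-cre against dflox, 1 against GREmx1-cre and 0 in GRMREmx1-cre against MREmx1-cre (5 members had an unadjusted limma p below 0.05 in the full fit). Its 4 calls in GRMREmx1-cre against GREmx1-cre held Bst2 and Ifi35, lower, in place of B2m and Ifit2. The cause was not tested.

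The replicate number is the position on the slide. Same-numbered arrays correlated between -0.03 and 0.19 (median 0.074, 19 of 21 pairs above 0, 6 above 0.1), and other pairs between -0.15 and 0.11 (median -0.023, 22 of 63 above 0). As not every pair was above 0.1, which was the rule set here, the numbers were not taken to pair the samples. The main fit thus took no account of slide position, though same-numbered arrays were by the median more alike than others. Of 15 arrays, 7 correlated best with their own number in every other group that has it. With the number as a block, 0 members were called in GREmx1-cre, 3 in MREmx1-cre and 3 in GRMREmx1-cre against dflox, 4 in MREmx1-cre against GREmx1-cre, 4 in GRMREmx1-cre against GREmx1-cre and 1 in GRMREmx1-cre against MREmx1-cre. The block added Trim25 in MREmx1-cre against dflox (adjusted p = 0.0456) and, with Rsad2 (0.31, adjusted p = 0.0448), against GREmx1-cre (adjusted p = 0.0318), and Irgm1 in GRMREmx1-cre against GREmx1-cre (adjusted p = 0.0447). It ended the calls of Ifit3 in GREmx1-cre, both of Ifit2, and of Irf8 in GRMREmx1-cre against MREmx1-cre.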
